A study of Homo sapiens with 27 samples.

Results

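Zinc finger genes of the ZNF series form one of the most clustered gene families of the human genome, and chromosome 19 holds a large share of them. The set described here is every protein-coding gene of chromosome 19 whose symbol is ZNF followed by a number and at most 1 letter, as listed by RefSeq for GRCh38.p14. There are 246 such genes among 20037 protein-coding genes, and the other 1205 protein-coding genes of chromosome 19 served as the comparison. A transposon insertion was assigned to a gene when it lay inside the gene bounds or within 1 kb of them. Over all libraries 1708 distinct insertion sites fell in ZNF genes and 20111 in the other coding genes of the chromosome, of 2955313 distinct sites in the genome.

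The insertions were made in HCT116, an established human colorectal carcinoma line, with self-reporting transposons, whose own promoter sends a transcript out into the flanking DNA so that the position can be read from RNA. All cells were selected in puromycin at 3 µg/ml for 2 weeks. The study asked how changes to the transposase and to the transposon ends alter piggyBac transposition, and 9 groups of 3 replicates were compared. In 4 groups the transposon was wild-type and only the enzyme differed: WT_PB had piggyBac, WT_rePB its re-engineered version, WT_hyPB the hyperactive enzyme, and WT_rehyPB the version that is both. The short transposon was paired with piggyBac in short_PB and with the hyperactive enzyme in short_hyPB. The symmetric transposon was paired with the re-engineered enzyme in sym_rePB and with the doubly changed one in sym_rehyPB. The last group is labelled as wild-type transposon and piggyBat (WT_PBat), a bat relative of piggyBac. The labels do not describe the changes behind the words re-engineered, short and symmetric. They do not say whether replicates were separate transfections, so the spread between these libraries may be technical. The p-values of comparisons between groups measure that spread. Those of sign-flip tests use only the 9 group means, and measure how alike these are in sign and size.

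Most ZNF proteins of chromosome 19 carry a KRAB domain ahead of a tandem array of zinc fingers. The fingers bind DNA, often in transposable elements, and the KRAB domain recruits the corepressor TRIM28, which brings in the histone methyltransferase SETDB1 and HP1 proteins. The family grew by local duplication, so neighbouring genes have closely related sequences, and the finger-coding exons of many of these genes are themselves packed in heterochromatin marked by histone H3 lysine 9 methylation. piggyBac-type transposases insert into the 4-base target TTAA, and piggyBac insertions are known to favour open chromatin and gene starts.

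Depth set what could be seen. The 12 libraries with the wild-type transposon and a piggyBac enzyme held 336329 to 570360 distinct sites each, and 229 to 315 of them lay in ZNF genes. The other 15 libraries held 2814 to 9212 distinct sites, of which 3 to 14 lay in ZNF genes. The 2 kinds are called deep and shallow below, and gene-level statements rest on the deep libraries. Some replicates overlapped more than others. Of the sites of WT_hyPB replicate 1, 75.43% also stood in replicate 2 and 28.64% in replicate 3, and of those of WT_PBat replicate 1, 52.52% also stood in replicate 3 and 9.23% in replicate 2. These pairs are not fully independent, and the main results were also computed with each pair averaged to 1.

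RefSeq promoter windows, from 250 bases before to 50 bases after an annotated start, show the target letters directly. Windows were found for 216 of the 246 ZNF genes. Of 139 sites listed in them over all libraries, 135 (97.12%) began exactly at a TTAA, as did 97.30% of 519 sites in the windows of other chromosome 19 genes and 97.32% of all 15565 sites in coding gene windows. The motif reads the same on both strands, and its search allowed overlaps. At least 1 TTAA stood in 43.98% of ZNF windows, compared with 29.51% of the 969 windows of other coding genes of the chromosome and 39.48% of all 15843 windows. The mean number of targets per window was 0.56 in ZNF genes, above the 0.43 of the other genes of the chromosome and below the 0.67 of all windows. A smaller share of the ZNF targets was used than of those in the other genes of the chromosome. Of 119 distinct TTAA in ZNF windows, 28 (23.53%) carried an insertion in at least 1 deep library, compared with 143 of 404 (35.40%) in the other genes of the chromosome. These counts are descriptions, and no test was made on them.

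The 250 bases before the start of 5 ZNF genes are printed because they show used and unused targets side by side. They were chosen after their counts were seen, from the windows with most insertions and from those with most targets and no insertion. Sequences are RefSeq's for GRCh38.p14, 5′ to 3′ in the sense of the gene, with every TTAA in capitals.
ZNF14: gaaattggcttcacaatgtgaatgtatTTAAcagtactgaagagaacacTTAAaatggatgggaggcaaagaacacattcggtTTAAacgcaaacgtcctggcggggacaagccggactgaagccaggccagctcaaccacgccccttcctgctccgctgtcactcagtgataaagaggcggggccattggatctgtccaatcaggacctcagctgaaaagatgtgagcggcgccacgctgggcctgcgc
ZNF302: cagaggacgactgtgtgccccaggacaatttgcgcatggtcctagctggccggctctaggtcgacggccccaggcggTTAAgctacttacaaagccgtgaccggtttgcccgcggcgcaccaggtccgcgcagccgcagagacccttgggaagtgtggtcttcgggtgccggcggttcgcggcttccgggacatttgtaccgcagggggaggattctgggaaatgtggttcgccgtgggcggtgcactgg
ZNF575: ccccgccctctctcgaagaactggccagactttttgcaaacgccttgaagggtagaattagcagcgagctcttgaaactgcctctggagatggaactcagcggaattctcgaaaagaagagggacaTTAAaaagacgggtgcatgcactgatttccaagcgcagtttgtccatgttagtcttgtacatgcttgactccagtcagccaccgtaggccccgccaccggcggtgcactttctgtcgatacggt
ZNF805: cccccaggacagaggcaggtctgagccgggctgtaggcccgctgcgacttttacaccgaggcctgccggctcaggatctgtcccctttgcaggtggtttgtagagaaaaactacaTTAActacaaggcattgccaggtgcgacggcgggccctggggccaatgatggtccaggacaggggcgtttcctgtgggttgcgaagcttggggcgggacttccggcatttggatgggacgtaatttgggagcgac
ZNF880: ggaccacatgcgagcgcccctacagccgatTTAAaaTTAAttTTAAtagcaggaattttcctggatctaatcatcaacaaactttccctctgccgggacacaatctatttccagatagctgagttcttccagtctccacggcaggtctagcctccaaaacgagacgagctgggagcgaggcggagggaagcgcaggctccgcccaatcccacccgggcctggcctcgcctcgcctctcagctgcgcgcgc

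The ZNF14 sequence is the minus strand of chr19:19733113-19733362. Its 3 targets were used unequally. Counted from the start, the target at -167 was listed in 8 libraries of 5 groups, the one at -201 in 2 libraries, and the one at -223 in none. The other sequences are on the plus strand. The single target of ZNF302 (chr19:34677428-34677677) lies at -173 and was listed in 10 of the 12 deep libraries. The single target of ZNF575 (chr19:43532938-43533187) lies at -124 and was listed in 10 libraries of 5 groups, and that of ZNF805 (chr19:57240382-57240631), at -135, in 10 deep libraries. ZNF880 (chr19:52369673-52369922) has 3 targets in this stretch and no listed insertion anywhere in the gene, in any of the 27 libraries.

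Insertions were sparse in ZNF genes in every library. Density is given as sites per Mb of gene territory for every 100000 sites in the library, and counts bases rather than TTAA targets. In WT_PB it was 8.24, 8.82 and 7.68 in ZNF genes and 28.75, 28.79 and 28.80 in the other coding genes of chromosome 19. The log2 ratio of the densities was -1.80 ± 0.10 (SD, n = 3), a 3.49-fold lower density. The other deep groups were close to this, at -1.99 ± 0.07 in WT_rePB, -1.92 ± 0.08 in WT_hyPB and -1.88 ± 0.13 in WT_rehyPB (SD, n = 3 each). The short and symmetric groups were lower on average and more spread, and few ZNF sites stand behind each value. They stood at -2.06 ± 0.37 in short_PB, -2.27 ± 0.74 in short_hyPB, -2.04 ± 0.75 in sym_rePB and -2.79 ± 0.31 in sym_rehyPB (SD, n = 3 each). WT_PBat was lowest, at -3.47 ± 0.09 (SD, n = 3), or 11.09-fold lower, from 5, 5 and 7 ZNF sites. No library reached a ratio of 0. Over 9 group means the log2 ratio averaged -2.25 (two-sided exact sign-flip permutation test, p = 0.00391, the smallest it can give, and 0.00521 after Benjamini-Hochberg adjustment over 4 tests).

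**Figure D1:**
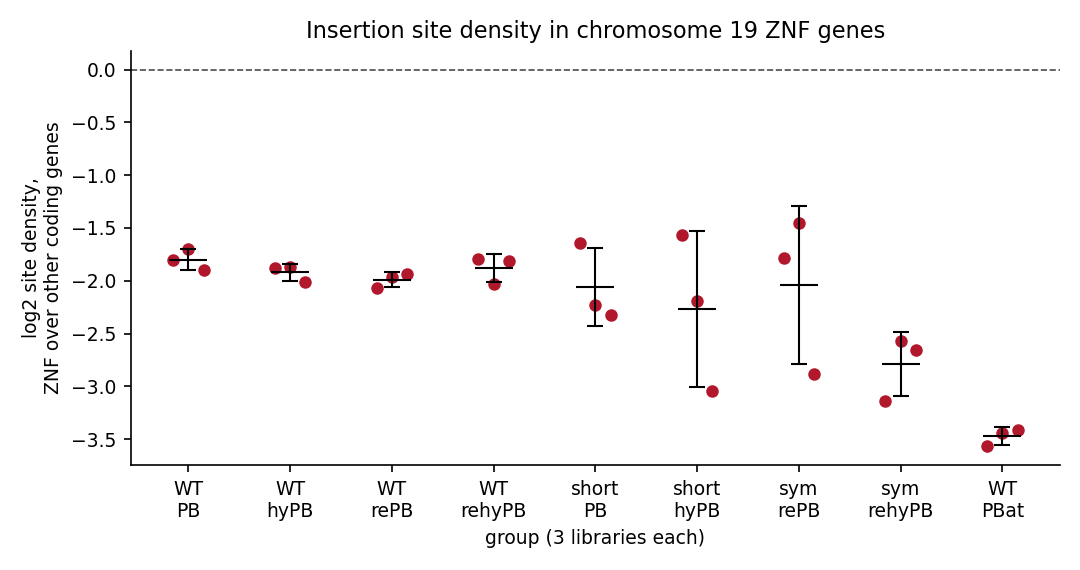
Log2 ratio of insertion site density in ZNF genes to that in other coding genes of chromosome 19, by group. Points are libraries, bars the mean and SD of 3 replicates, and the dashed line equal density; every point lies below the line, and WT_PBat lies lowest at a mean of -3.47.

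As a share of all chromosome 19 sites, ZNF genes held 4.61% of 16074 sites in WT_PB (95% Wilson interval 4.30% to 4.95%) and 1.58% of 1078 in WT_PBat (0.987% to 2.51%), although they cover 7.49 Mb against 26.31 Mb for the other coding genes. These intervals cover the counting error of distinct sites only. They take sites as independent, although a position shared by replicates is counted in each library. Neither the removal of PCR duplicates nor the treatment of reads that map to several places is given in the sources used here. Counts in near-identical ZNF genes are therefore uncertain, and the part of mappability in their low density was not tested. In the deep groups the sites that were found had somewhat lower peaks, with overlap in WT_hyPB. The median peak height per library was 12 to 13 reads in ZNF genes and 14 to 16 in other genes in WT_PB, and 10 against 13 to 14 in WT_rePB.

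The deficit was larger on chromosome 19 than elsewhere. The 263 ZNF genes on other chromosomes had group mean log2 ratios of only -0.46 to -0.14 against the other coding genes there, with -0.25 ± 0.02 in WT_PB (SD, n = 3). The chromosome 19 ratio was lower than the ratio elsewhere in all 9 groups, with log2 differences of -3.01 to -1.55, and the mean difference was -1.96 (two-sided exact sign-flip test over 9 groups, p = 0.00391, adjusted p = 0.00521 over 4 tests chosen after the data were seen). Chromosome 19 zinc finger genes of other names (ZFP, ZSCAN, ZIM, ZBTB, ZIK1 and PEG3) had -1.11 ± 0.12 in WT_PB (SD, n = 3) against the remaining coding genes of the chromosome, and 0.02 ± 0.75 in sym_rePB, where few sites stand behind the value. Within that list of 19 genes, ZFP28, ZIK1 and ZSCAN1 had no site in the deep libraries and the imprinted gene PEG3 had 1. ZBTB45 had 82 over 25.38 kb, a density of 56.94, and the long gene ZSCAN5A had 234 over 147.0 kb, a density of 29.86.

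None of the 5 transposase or transposon comparisons of the ratio passed its test, but WT_PBat lay well outside the spread of WT_PB. The hyperactive form differed from its counterpart by -0.24 (log2, mean of 4 pairs of groups, exact permutation test adjusted p = 0.263) and the re-engineered form by -0.07 (2 pairs, adjusted p = 0.305). The short transposon differed by -0.30 (exact permutation adjusted p = 0.263) and the symmetric one by -0.48 (exact permutation adjusted p = 0.25). By pair, the symmetric difference was -0.05 in sym_rePB and -0.91 in sym_rehyPB. The hyperactive difference was 0.11 in WT_rehyPB, -0.11 in WT_hyPB, -0.20 in short_hyPB and -0.75 in sym_rehyPB. WT_PBat differed from WT_PB by -1.67 (3.18-fold lower) and the 6 libraries did not overlap, and 3 against 3 libraries cannot give an exact permutation p below 0.1 (adjusted p = 0.25), so this test could not have passed. No effect was shown to differ between its pairs of groups (exact permutation, lowest adjusted p = 0.23 over 4 tests).

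These ratios depend on the genes they are set against. The share of all sites that lay on chromosome 19 was higher in the shallow groups, and ZNF density per 100000 sites was 14.60 ± 3.81 in short_PB and 23.45 ± 9.27 in sym_rePB, compared with 8.25 ± 0.568 in WT_PB and 7.26 ± 0.298 in WT_rePB (SD, n = 3). Set against all other coding genes of the genome, ZNF density was therefore higher with the short transposon, by 0.96, and with the symmetric one, by 1.2 (log2, exact permutation adjusted p = 0.0125 for both), the opposite sign from the comparison within the chromosome. In WT_PBat the ZNF density was 9.84 ± 0.635, close to WT_PB, whereas the other coding genes of chromosome 19 stood at 118.6 ± 3.15 against 28.78 ± 0.0268 (SD, n = 3). Against all coding genes of the genome the difference between WT_PBat and WT_PB was 0.00. Every short, symmetric and WT_PBat library is shallow, and the libraries it was compared with are deep. Depth therefore cannot be told apart from the transposon or enzyme in these comparisons, within the chromosome or against the genome.

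Within a ZNF gene, insertions gathered at the edges and above all at the start. In windows of 1 kb to either side of both gene ends, the density in ZNF genes was 6.17-fold that of the interior in WT_PB, 3.31-fold in WT_rePB, 6.98-fold in WT_hyPB and 4.24-fold in WT_rehyPB. In the other coding genes of the chromosome the same ratios, in the same order of groups, were 1.86, 1.38, 1.88 and 1.53. The start exceeded the far end of ZNF genes 7.22-fold in WT_PB, 2.73-fold in WT_rePB, 9.28-fold in WT_hyPB and 3.81-fold in WT_rehyPB, against 1.44, 0.902, 1.46 and 1.13 in the other genes. Over 9 groups the log2 ratio of edge to interior was 3.38 and that of start to far end 2.80 (exact sign-flip test, p = 0.00391 and adjusted p = 0.00521 for both). For edge to interior the deep groups had 1.73 to 2.80, and sym_rePB and sym_rehyPB 4.95 and 5.39. No interior ZNF site was listed in sym_rePB replicate 2 and sym_rehyPB replicates 1 and 3, so the 0.5 added to counts sets their ratios. In the shallow groups the windows hold few sites: 20 of the ZNF sites in short_PB lay near a start and 8 in the remaining territory, 22 and 5 in short_hyPB, 12 and 3 in sym_rePB, 10 and 1 in sym_rehyPB, and 8 and 9 in WT_PBat.

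**Figure D2:**
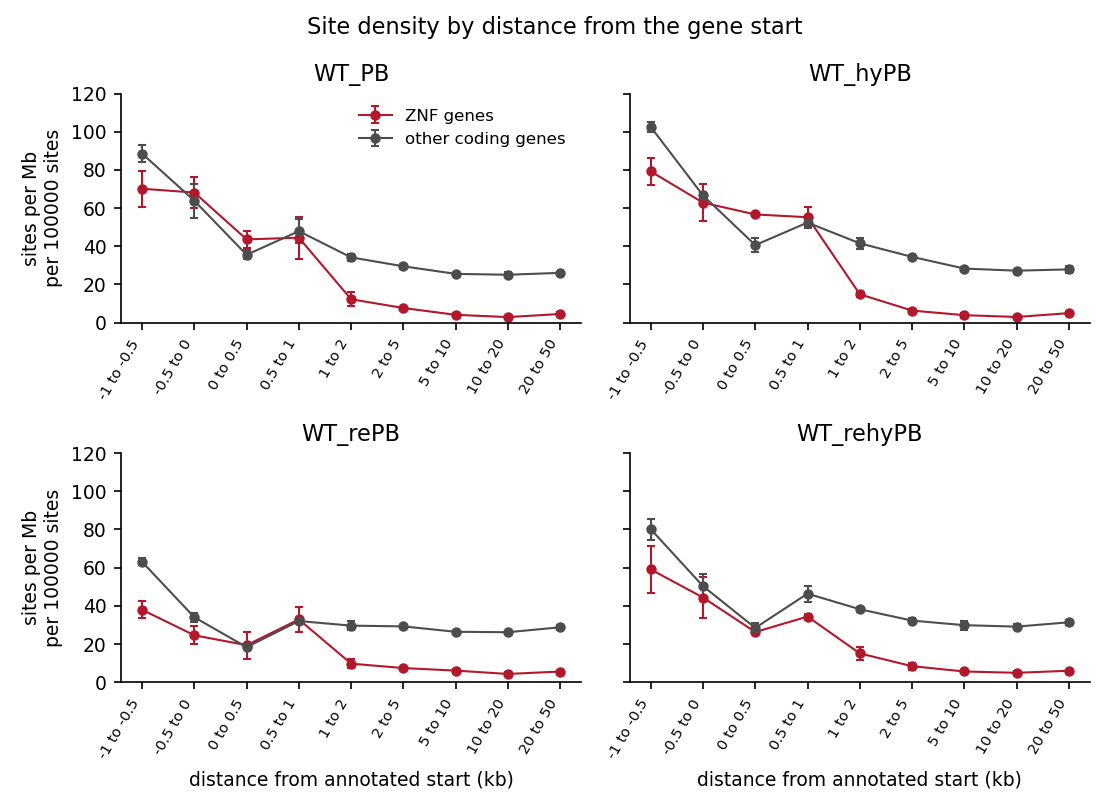
Insertion density by distance from the annotated start (kb, negative before the start) in the 4 deep groups, for 216 ZNF genes and 969 other coding genes of chromosome 19 with a known strand. Points are means and bars the SD of 3 libraries; in WT_PB the ZNF curve falls from 44.47 sites per Mb at 0.5 to 1 kb to 12.23 at 1 to 2 kb, while the other genes go from 47.88 to 34.17.

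The profile around the start shows where the 2 gene sets part. From 500 bases before the start up to the start, WT_PB had 68.13 ± 7.98 sites per Mb per 100000 sites in ZNF genes and 63.85 ± 8.93 in the others. From 500 to 1000 bases after it the values were 44.47 ± 11.04 and 47.88 ± 6.20. Both steps overlap within their SD (n = 3). The remaining steps did not, and went opposite ways: from 1000 to 500 bases before the start ZNF genes were lower, at 70.11 ± 9.30 against 88.52 ± 4.30, and in the first 500 bases of the gene they were higher, at 43.59 ± 4.32 against 35.52 ± 2.30. Between 1 and 2 kb into the gene the ZNF density was 12.23 ± 3.74 against 34.17 ± 1.73, and between 10 and 20 kb it was 2.89 ± 0.728 against 25.07 ± 1.42 (SD, n = 3). In WT_rePB the ZNF density was lower before the start, with 37.94 ± 4.36 against 63.04 at 1000 to 500 bases before it and 24.57 ± 4.66 against 34.01 in the next 500 bases. After the start it overlapped that of the other genes, with 19.38 ± 7.05 against 18.36 in the first 500 bases and 32.86 ± 6.78 against 32.04 in the next 500, and the step at 1 to 2 kb was again large, with 9.71 ± 2.32 against 29.61.

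Split in this way, most of the deficit lay outside the start windows. In WT_PB the start windows held 56.95 ± 3.64 against 58.42 ± 5.06 and the remaining territory 5.35 ± 0.360 against 26.38 ± 0.468, a 4.92-fold lower value in ZNF genes (SD, n = 3). With the re-engineered enzyme the start windows also differed, at 29.00 ± 2.36 in ZNF genes of WT_rePB against 36.74 ± 0.663, with no overlap. Outside start windows the fold was 4.48 in WT_rePB, 5.80 in WT_hyPB and 4.41 in WT_rehyPB. Over 9 groups the ZNF to other log2 ratio was -0.29 at starts (exact sign-flip adjusted p = 0.0938) and -3.22 outside them (adjusted p = 0.00521), and the 2 ratios differed by -2.92 (adjusted p = 0.00521). These tests were chosen after the profile was seen, and the -3.22 includes shallow libraries with no ZNF site outside start windows, to which 0.5 sites were added. The start ratio varied between groups, from -0.03 ± 0.12 in WT_PB and 0.17 ± 0.70 in sym_rePB to -0.67 ± 0.24 in sym_rehyPB and -1.48 ± 0.85 in WT_PBat (SD, n = 3), and all libraries of the last 2 groups were below 0. Without the libraries numbered 1 the start ratio over 9 groups was -0.35 and passed (exact sign-flip adjusted p = 0.0117). Shares near a start were taken of the sites near a start plus those outside all start windows, in genes of known strand. They were 41.46% ± 1.51 in ZNF genes and 16.50% ± 1.44 in other genes in WT_PB, and 70.83% ± 7.22 of the few ZNF sites in short_PB (SD, n = 3).

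**Figure D3:**
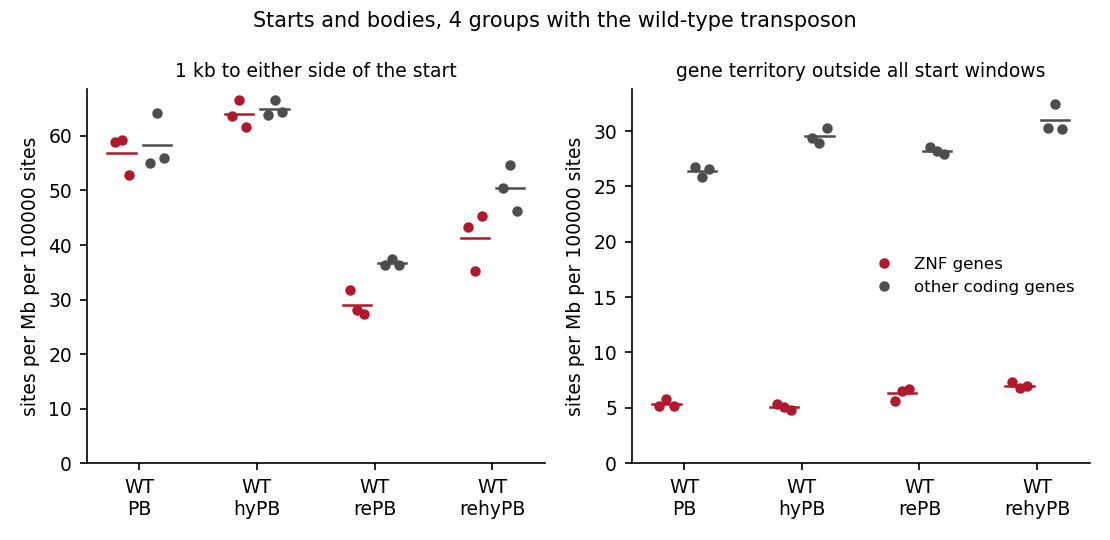
Insertion density within 1 kb of a start (left) and in the remaining gene territory (right) for ZNF genes and other coding genes of chromosome 19. Points are the 3 libraries of each deep group and lines their means; at starts the ZNF mean falls from 56.95 in WT_PB to 29.00 in WT_rePB, and outside starts ZNF genes stay between 5.07 and 7.0 against 26.38 to 30.98.

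With the re-engineered enzymes ZNF insertions were sparser at starts and denser outside them. ZNF start density was 58.93, 59.17 and 52.75 in WT_PB and 31.69, 28.04 and 27.28 in WT_rePB, and 63.58, 66.64 and 61.62 in WT_hyPB and 43.29, 35.21 and 45.24 in WT_rehyPB. The groups do not overlap in either pair. The mean difference was -0.81 on the log2 scale (1.75-fold lower, exact permutation within 2 pairs of groups, adjusted p = 0.0133 over 12 tests chosen after the data were seen). Outside start windows ZNF density rose by 0.35 (1.28-fold, exact permutation adjusted p = 0.0133). The other coding genes changed the same way by less, with -0.52 at starts and 0.08 outside, and the ZNF to other ratio itself fell by 0.29 at starts and rose by 0.27 outside (exact permutation adjusted p = 0.0133 for each). Shares near a start, taken as for WT_PB above, were 23.49% ± 3.19 in ZNF genes of WT_rePB and 28.06% ± 2.26 in those of WT_rehyPB (SD, n = 3). With peaks of height 10 or more the start density still passed, but the rise outside starts did not (0.31, exact permutation adjusted p = 0.06), nor did the start and outside ratios (-0.17 and 0.25, exact permutation adjusted p = 0.267 and 0.111). Without a replicate number, 2 libraries per group cannot give an exact permutation p below 0.0556, so no call on ZNF genes or both ratios could stand. Only the start density reached this value whichever number was left out. The difference was then -0.86 to -0.71 at ZNF starts and 0.30 to 0.38 outside them. The ratio changed by -0.36 to -0.20 at starts and by 0.19 to 0.32 outside. The hyperactive enzymes raised ZNF start density by 0.34 (exact permutation adjusted p = 0.0133), and other starts by 0.31.

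The peak strand matched the strand of the ZNF gene in 45.24% ± 1.25 of sites in WT_PB, 44.59% ± 1.46 in WT_rePB, 42.71% ± 1.85 in WT_hyPB and 45.13% ± 2.70 in WT_rehyPB (SD, n = 3). Other genes of the chromosome stood at 41.65% ± 1.49 in WT_PB. Over 9 groups the ZNF mean was 43.50% and did not pass the test against 50% (exact sign-flip, adjusted p = 0.109). Restriction to peaks of height 10 or more gave 35.06% (exact sign-flip adjusted p = 0.0156). Groups count equally in both, with 740 to 914 peaks at any height in the deep ones and 11 to 30 in the shallow ones. Every deep library lay between 40.86% and 48.25%, and shallow libraries ranged from 0% to 83.33%. Median ZNF peak heights in the shallow groups were 5 to 9 reads, so height 10 leaves few of their peaks.

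Single genes ranged from dense to empty. In the 12 deep libraries together, 88 of 246 ZNF genes (35.77%) had no site, compared with 87 of 1205 other coding genes (7.22%). The median density was 2.64 sites per Mb per 100000 sites against 24.65, and 38 ZNF genes lay above the median of the other genes. The upper quartile was 12.81 in ZNF genes, just above the lower quartile of 11.47 in the others. Only 37 ZNF genes (15.04%) were hit in all 12 libraries, against 458 (38.01%) of the other coding genes. Of the 3291 ZNF sites, 21 genes carried 50%, a count not made for the other genes. ZNF genes are longer, with a median length of 23.15 kb against 12.76 kb, and comparison with genes of like length left the 9-group ratio at -2.25.

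The 8 densest genes were led by short ones. ZNF575 (5.25 kb, chr19:43530835-43536087) had 9, 3 and 4 sites in WT_PB, 6, 6 and 5 in WT_hyPB, 5, 3 and 4 in WT_rePB and 2, 7 and 4 in WT_rehyPB, a mean density of 155.3. It was hit in every deep library, and the 4 groups overlap. ZNF524 followed at 128.7, ZNF296 at 105.1 and ZNF628 at 100.6. ZNF628 had 6, 3 and 3 sites in WT_PB, 9, 6 and 4 in WT_hyPB, 4, 3 and 3 in WT_rePB and 2, 4 and 4 in WT_rehyPB, again with overlap. ZNF507 (42.06 kb, chr19:32345610-32387667) stands out among longer genes, with 18, 12 and 17 sites in WT_PB, 18, 17 and 16 in WT_hyPB, 22, 23 and 19 in WT_rePB and 15, 15 and 22 in WT_rehyPB, a mean density of 92.51. ZNF497 (75.61), ZNF865 (73.21) and ZNF823 (62.11) complete the list. For comparison, the other coding genes of the chromosome averaged 30.63 in these groups. Gene by gene, their 90th percentile was 65.81, above the value of ZNF823.

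The longest gene, ZNF536 (488 kb, chr19:30225592-30713586), is a negative regulator of neuronal differentiation and lies apart from the clusters. It held 317 sites, 9.63% of the total, with 32, 23 and 24 in WT_PB, 16, 19 and 12 in WT_hyPB, 29, 44 and 44 in WT_rePB and 25, 22 and 27 in WT_rehyPB. WT_hyPB was lowest and did not overlap the other groups. Its density of 12.19 was nonetheless below that of the other coding genes. ZNF333 had 128 sites, ZNF541 had 120 and ZNF565 had 104.

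At the other end, 79 of 218 ZNF genes of 10 kb or longer had no site in the deep libraries, compared with 31 of 734 other genes of that length. The longest of them were ZNF420 (122.5 kb), which encodes a KRAB protein that binds p53, ZNF568 (81.60 kb), ZNF676 (81.22 kb), the imprinted gene ZNF331 (77.03 kb), ZNF730 (72.01 kb), ZNF208 (71.13 kb), ZNF540 (62.81 kb) and ZNF529 (61.93 kb). Taking 3 sites over the 12 libraries as the limit that a count of 0 allows, the density of ZNF420 could reach 0.457 and that of ZNF529 0.89. The following genes were looked up after the values were seen, for what is known of them. ZNF93, which represses LINE-1 elements, had no site in any library, and ZNF91, which represses SVA elements, had 3 sites over 90.47 kb in the deep libraries. ZNF274, which recruits SETDB1 to the ends of zinc finger genes, had 15.

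A fit across genes found no ZNF gene changed between the 4 deep groups. limma tested 9439 coding genes with a mean of at least 5 sites, and only 7 ZNF genes reached that mean: ZNF507, ZNF536, ZNF333, ZNF541, ZNF565, ZNF714 and ZNF823. For the hyperactive effect 133 genes (1.41%) passed an adjusted p of 0.05, of which 0 were ZNF genes, with 2 of the 7 ZNF genes and 1326 of all 9439 at an unadjusted p under 0.05. For the re-engineering effect 401 genes (4.25%) passed, again 0 ZNF genes, with 1 of 7 and 1854 of 9439 at an unadjusted p under 0.05. For the interaction 1 gene (0.0106%) passed, which was no ZNF gene, with 1 of 7 and 987 of 9439 at an unadjusted p under 0.05. The unadjusted counts of ZNF genes differ by at most about 1 gene from what these shares of all genes give for 7. With 7 genes tested the adjusted shares correspond to less than 1 gene. limma-voom weights also called 0 ZNF genes in each contrast. ZNF536 came nearest, at a log2 difference of 0.46 ± 0.15 (SE) for re-engineering (limma adjusted p = 0.0667) and -0.45 ± 0.15 (SE) for the hyperactive form (limma adjusted p = 0.125). For ZNF507 the same differences were 0.08 ± 0.15 and 0.15 ± 0.15 (SE, limma adjusted p = 0.804 and 0.694).

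Density also differed between the clusters. Neighbouring ZNF genes less than 500 kb apart were joined into runs, and 10 runs of at least 5 genes held 232 of the 246. Emptiest was the pericentromeric run from ZNF101 to ZNF254 (37 genes, 19.67 to 24.13 Mb), where density was 2.26 ± 0.877 in WT_PB, 1.74 ± 0.589 in WT_rePB, 1.90 ± 0.638 in WT_hyPB and 2.51 ± 0.806 in WT_rehyPB (SD, n = 3). The mean of 2.10 is 14.56-fold below the other coding genes, and 23 of the 37 genes had no site. Next came the run from ZNF565 to ZNF573 (26 genes, 36.18 to 37.78 Mb) at 2.78, with 14 genes empty, and that from ZNF175 to ZNF331 (39 genes, 51.57 to 53.58 Mb) at 4.26, with 13 empty. The runs from ZNF653 to ZNF791 at 6.84, ZNF575 to ZNF180 at 8.93 and ZNF414 to ZNF846 at 9.33 were intermediate.

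**Figure D4:**
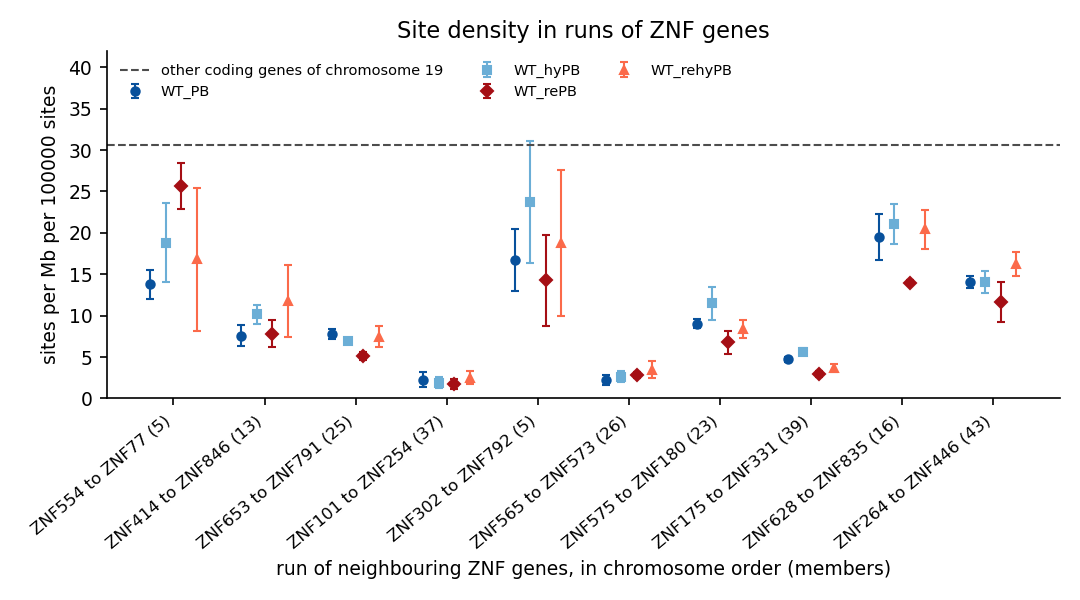
Insertion density in the 10 runs of at least 5 neighbouring ZNF genes, in chromosome order, with the number of genes in brackets. Symbols are the means of the 4 deep groups and bars the SD of 3 libraries; the dashed line is the other coding genes of chromosome 19 at 30.63, and the runs from ZNF101 to ZNF254 and from ZNF565 to ZNF573 lie lowest.

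The densest runs were ZNF554 to ZNF77 (5 genes) at 18.77, ZNF628 to ZNF835 (16 genes) at 18.75 and ZNF302 to ZNF792 (5 genes) at 18.37, followed by ZNF264 to ZNF446 (43 genes, 57.19 to 58.49 Mb), the most telomeric, at 13.99. The 10 run means were all below 30.63. The 14 genes outside these runs had 22.48 ± 2.49 in WT_PB, 22.85 ± 1.87 in WT_rePB, 19.86 ± 1.78 in WT_hyPB and 23.20 ± 1.88 in WT_rehyPB, against 6.50 ± 0.478, 5.34 ± 0.333, 7.15 ± 0.201 and 7.07 ± 0.665 for the genes inside them (SD, n = 3). The 2 sets do not overlap in any deep group. These 14 genes ranged widely. ZNF296 (105.1), ZNF507 (92.51) and ZNF333 (52.26) were densest, ZNF536 (12.19) and ZNF473 (11.47) were low, and the neighbours ZNF546, ZNF780A and ZNF780B had no site.

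In the shallow groups the ZNF insertions fell in few genes. ZNF865 had 6 sites in short_PB and 8 in short_hyPB, and ZNF507 had 2 and 3, followed by ZNF628 with 1 and 3. With the symmetric transposon ZNF507 had 4 sites in sym_rePB and 4 in sym_rehyPB, ZNF865 had 4 and 2, and ZNF766, ZNF628 and ZNF114 had 2 in all. In WT_PBat, ZNF823 and ZNF628 had 3 sites each, and ZNF865, ZNF584 and ZNF653 had 2. All of these genes also carried sites in the deep libraries, and only ZNF253 was hit in a shallow library, with 1 site, and in no deep one.

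Single insertion positions recurred across enzymes and transposons. They lie outside the promoter windows, so their letters were not read. The position listed in most libraries was chr19:55606333-55606336, 686 bases into ZNF865, which was found in 21 of 27 libraries and in all 9 groups, including 2 of the 3 WT_PBat libraries. Then came chr19:32346375-32346378, 765 bases into ZNF507, in 19 libraries of 8 groups, and chr19:11738085-11738088, 861 bases into ZNF823, in 17 libraries of 6 groups and in all 3 WT_PBat libraries, 2 of which share many sites. The positions 66 bases into ZNF766 (chr19:52269653-52269656) and 846 bases into ZNF628 (chr19:55477463-55477466) were each listed in 14 libraries of 7 groups. All 5 lie within 1 kb after the annotated start. Of the 1708 ZNF positions 28 (1.64%) were listed in 10 or more libraries, against 366 of 20111 (1.82%) in the other coding genes, and 63.17% were listed in 1 library only, against 54.15% in the other coding genes.

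The 11 listed partners of KRAB zinc finger proteins, wherever they lie in the genome, had densities of 26.67 to 167.5 in the deep groups. TRIM28, the corepressor that KRAB domains bind, lies at chr19:58544064-58550715, close to the run from ZNF264 to ZNF446, and had 22 sites in 11 of the 12 deep libraries, a density of 49.46. SETDB1, the H3K9 methyltransferase, stood at 55.85, its partner ATF7IP at 103.8, and the HP1 genes CBX1, CBX3 and CBX5 at 72.18, 167.5 and 153.1. MPHOSPH8 (47.61) and PPHLN1 (56.07) of the HUSH silencing complex, MORC2 (26.67), UHRF1 (48.56) and DNMT1 (28.69) completed the list. Of these 11 genes, 9 were above and MORC2 and DNMT1 below 30.63, the average of the other coding genes of chromosome 19. Gene by gene, those other genes had a median of 24.65 and an upper quartile of 43.57. Most of the 11 lie on other chromosomes, and the share of all coding genes above 30.63 was not computed.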

How the data were processed

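Per the labels' protocols, RNA from puromycin-selected HCT116 cells was copied into cDNA from an oligo-dT primer, enriched by PCR for transposon junctions, tagmented and sequenced. Per the submitters' processing notes, cutadapt 3.4 and HISAT2 2.2.1.0 were used and the builds hg38 and GRCh38.p5 are named. The peak caller and the removal of duplicates are not given in the sources used here. The authors deposited 1 peak list per library, with no header. The deposited coverage and height columns are unscaled signal, judging by their values, and the lowest listed height is 5 reads. A column constant within each file was taken as the total of mapped reads, 142666 to 12051190.

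From these lists, a site was the first base of a peak on the plus strand, or 3 bases before its last base on the minus strand, counted once per library. Genes and promoter windows came from RefSeq for GRCh38.p14; strand was known for 216 ZNF and 969 other chromosome 19 genes. Territories were merged, ZNF territory was taken out of the comparison set, and 0.5 was added to site counts before log2. Exact permutation tests ran over group means or within pairs of groups (Python 3.11.15, scipy 1.17.1). limma 3.58.1 (R 4.3.3) was fitted to log2 of sites per gene plus 0.5 per 10000 sites, and was checked on simulated data.

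Named genes follow a rule: the 8 densest and 8 sparsest ZNF genes (the sparsest of at least 10 kb, where ties at 0 were ordered by length, a step added after seeing the data), the 3 with most sites in each kind of shallow group, any called by limma, the ends of each run, 2 lists and the 5 most recurrent positions. ZNF genes and lists were chosen with earlier results of these data known. The planned split by KRAB letters was not run because protein sequences were not used here. Alternatives were other windows, heights, comparators, depths, additions to counts, left-out replicates and a replicate block.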

Additional observations from a re-analysis of the deposited data

How the results depend on the processing

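The lower density of ZNF genes kept its direction and passed its test under all 11 other settings (log2 ratio -2.69 to -1.65) and without each replicate number (-2.30 to -2.15). Edge to interior (2.48 to 3.55) and start to far end (2.06 to 2.84) did so under the 6 other settings run for them, and without each replicate number (3.33 to 3.42 and 2.70 to 2.92). The sense share was 35.06% with heights of 10 or more and 49.63% inside gene bounds. Strands were always counted apart there. With heights of 10 or more the hyperactive effect was 0.26 and the symmetric effect 0.63. With the tallest sites only they were 0.21 and 0.79, and the re-engineering effect was -0.92 (exact permutation adjusted p = 0.25). Few sites stand behind these values. The tallest sites hold means of 1.00 to 5.03 ZNF sites per library by group. Median ZNF heights of 5 to 9 reads in the shallow groups leave few of their sites at height 10. The piggyBat effect was -2.59 with heights of 10 or more and -2.66 at equal file totals, and 0.00 against all coding genes. The re-engineering effect was 0.01 inside gene bounds. Against all coding genes of the genome the short effect was 0.96 and the symmetric effect 1.2. Expected at equal file totals they were -1.13 and -1.08, and the re-engineering effect 0.09, but deep libraries then hold only 0.0325 to 0.222 ZNF sites, so the added 0.5 sets the value.

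No pairing by replicate number was seen gene by gene: deviations from group means correlated at -0.02 to 0.02 in same-numbered and in differently numbered libraries. These correlations cannot show whether same-numbered libraries were prepared together. The replicate block left the 5 effects uncalled (-0.24, -0.07, -0.30, -0.48 and -1.67) and limma counts at 130, 407 and 1. In the tests of start and remaining territory, chosen after seeing the data, the replicate block gave an adjusted p of 0.0536 for the re-engineering effect on ZNF starts, remaining territory and its ratio and for the hyperactive effect on ZNF starts, and 0.0833 for the re-engineering effect on the start ratio. Without a replicate number none of the 8 tests on ZNF genes and their ratios for which it was run could pass. The smallest exact permutation p they can then give is 0.0556. The hyperactive effect then spanned -0.04 to 0.09 on ZNF territory outside starts and -0.06 to 0.08 on the start ratio. Without ZNF536 the hyperactive effect on remaining ZNF territory was 0.13 and passed (exact permutation adjusted p = 0.042).

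Counts of genes called by limma moved, with 0 ZNF genes called in any. For the hyperactive effect there were 71 with a mean of at least 1 site, 65 with linked libraries averaged, 58 with heights of 10 or more and 25 to 47 without a replicate number. For re-engineering there were 196 with linked libraries averaged and 76 to 220 without a replicate number. For the interaction there were 14 with voom weights, 15 with 2 sites added, 4 on the median scale, 2 inside gene bounds and 0 to 3 without a replicate number. Where no cause is named above, the cause was not tested. Shallow libraries hold 3 to 14 ZNF sites each, so differences between single ZNF genes were not detectable there. The comparison by KRAB letters was not run.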
